A study of Mus musculus with 13 samples.

Results

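The genes described here are those whose symbol is Med followed by a number, with or without a final l, together with Cdk8, Cdk19 and Ccnc. The rule found 33 genes among the 17849 of the RNA-seq table, and all 33 passed the filter on low counts that left 12003 genes to test. They were grouped here into 11 head, 9 middle, 6 tail and scaffold and 7 kinase module genes. Other assignments of subunits to modules were not tried, and statements by module hold for this grouping. RNA was measured by sequencing of total RNA, depleted of ribosomal RNA, from sorted thymocytes positive for both CD4 and CD8, a T cell precursor carrying both coreceptors. The groups are Rad21 KO, labelled as a knockout of a subunit of the cohesin ring, and wild type (WT), with 2 libraries each. The labels of these 4 libraries give no strain, age or sex, and they do not state by what means Rad21 was removed or which cells of the mouse lost it. Whether the 4 libraries came from different mice is not said either, and the p-values therefore reflect only the spread among these samples, which may be technical.

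Mediator is a large multisubunit complex that carries signals from DNA-bound transcription factors to RNA polymerase II at promoters. Its core is described in head, middle and tail modules held together by the scaffold subunit Med14, and a kinase module of a cyclin-dependent kinase, cyclin C, Med12 and Med13 binds the core reversibly and competes with the polymerase for it. Mediator and cohesin are known to occupy many of the same enhancers and promoters, and the study mapped the subunits Med1 and Rad21 on thymocyte chromatin.

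Library totals were 9384505 and 6914654 counts in Rad21 KO and 6633506 and 6500819 in WT. Counts assigned to Lars2 and Gm15564 took up 34.5% (replicate 1) and 12.6% (replicate 2) of the Rad21 KO libraries, against 5.84% and 7.47% of the WT libraries. Whether these counts stem from transcripts of the 2 genes was not tested. Without them the library totals lay between 6015242 and 6245781. Levels are given as CPM, counts scaled to the size of each library with TMM factors. A log2 change is the fitted log2 fold change of Rad21 KO over WT, with its standard error (SE), and adjusted p-values come from edgeR's quasi-likelihood test with Benjamini-Hochberg adjustment over all tested genes. The targeted gene itself stood at 67.9 and 65.7 CPM in Rad21 KO and at 271 and 233 CPM in WT (log2 change -1.91, SE 0.11, edgeR adjusted p = 0.000862). Of 12 genes taken here as markers of these cells, all were measured and 4 were lower in Rad21 KO (Rag1, Rag2, Themis and Cd1d1). Only Ptcra was higher, at a low level of 19.4 and 14.3 CPM in Rad21 KO and 8.47 and 7.62 CPM in WT. Whether each of the 12 is particular to this stage was not tested. Cd4 stood at 995 and 870 CPM in Rad21 KO and at 1454 and 1144 CPM in WT. The summed level of myeloid markers, 4 of 5 of them in the table, was 13.1 and 17.2 CPM in Rad21 KO and 24.7 and 29.2 CPM in WT, with Itgam lower in Rad21 KO. That of 5 thymic epithelial markers was 24.6 and 28.6 CPM in Rad21 KO and 17.8 and 17.3 CPM in WT, with Epcam higher. B cell, dendritic, NK and γδ T, and erythroid markers summed to at most 18.2 CPM in any library, and no marker in the table was at 0 in all 4 libraries. The part of these markers in the results was not tested. In bulk RNA, fewer cells of a type and less RNA per cell cannot be told apart.

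Most Mediator genes had RNA levels that differed little between the genotypes. Med30 fell and Med13l rose, and the other 31 stayed above the adjusted p threshold of 0.05, so 2 of 33 members (6.06%) were called where 12.8% of all tested genes were (7.6% higher and 5.17% lower in Rad21 KO). Together the members took 0.325% and 0.322% of the counts outside Lars2 and Gm15564 in Rad21 KO, against 0.325% and 0.330% in WT. Their summed level was 2737 and 2706 CPM in Rad21 KO and 2773 and 2749 CPM in WT. The median log2 change of the members was 0.05, beside -0.01 over all tested genes. The median size of the change, regardless of sign, was 0.18, beside 0.28 over all tested genes. The log2 changes were positive for 18 members and negative for 15. The libraries of the 2 genotypes did not overlap for 19 of 33 members (57.6%), with 10 higher and 9 lower in Rad21 KO, and the same was true of 58.9% of all tested genes (29.7% higher and 29.2% lower).

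The 95% interval of the fold change lay within 2-fold in either direction for 31 of 33 members, beside 65.3% of all tested genes. The exceptions were Med30, whose interval reached a log2 value of -1.29, and Med29, whose interval reached 1.13. For 19 members the interval lay within 1.5-fold. Where a member did not pass the threshold, its interval gives the size of change that these 4 libraries still allow. Counts behind these values ran from 26 for Med9 to 4532 for Med13, and the least counted members, Med9, Med11, Med12l, Med18 and Med31, had 97 counts or fewer in every library. The median gap between the replicates of a genotype was 0.15 on the log2 scale in Rad21 KO and 0.10 in WT. The median size of the change between genotypes was 0.18. A gap compares 2 single libraries and a change compares groups of 2, which vary less, so the sizes cannot be compared directly.

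**Figure D1:**
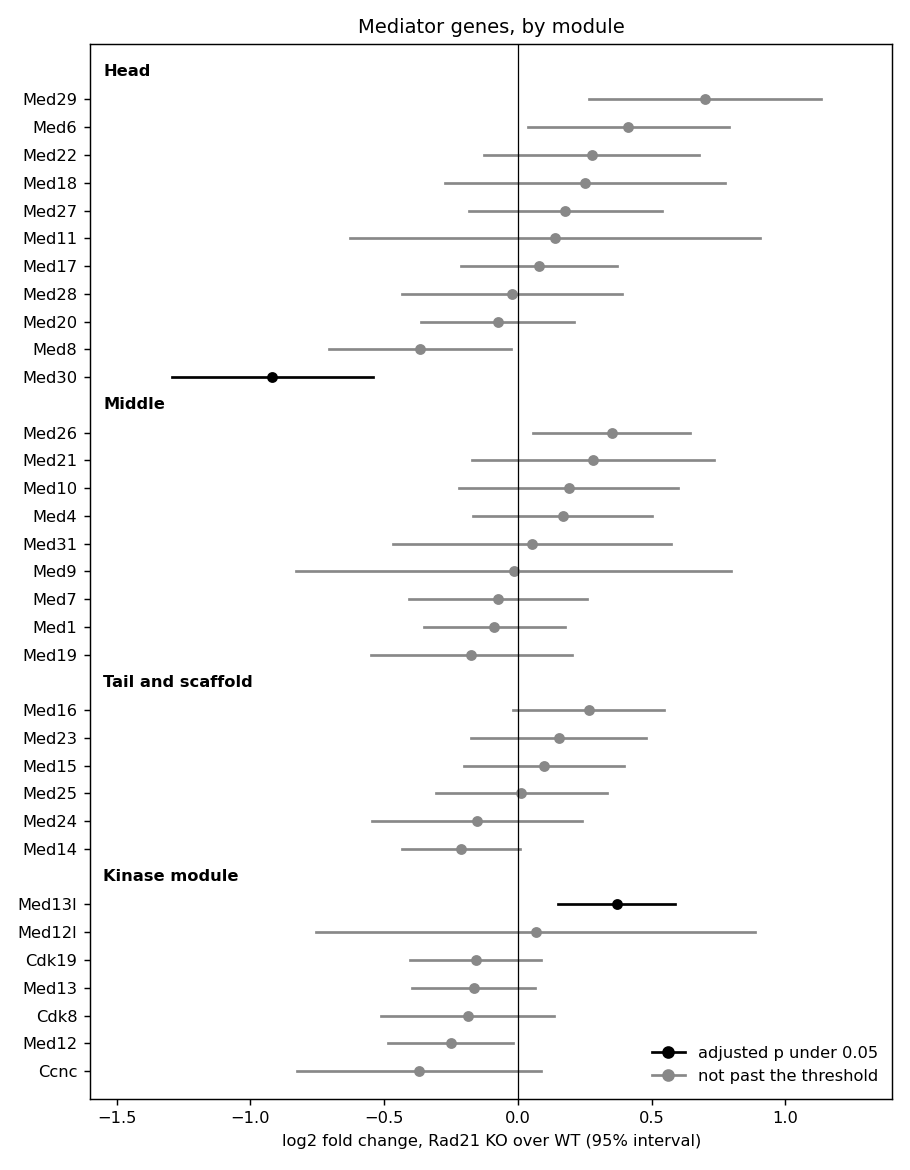
Log2 fold change of Rad21 KO over WT for each of the 33 Mediator genes (x axis), grouped by module down the page, with points for the estimates and bars for 95% intervals. Black marks the genes past the edgeR threshold (adjusted p 0.05). Med30 at -0.92 and Med13l at 0.37 stand in black, and most other intervals cross 0.

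The head module makes the first contacts of Mediator with the polymerase. As grouped here, it held both the largest fall and the largest positive value of the complex. Med30, a subunit found in animals and absent from the Mediator of budding yeast, stood at 14.0 and 15.1 CPM in Rad21 KO, against 27.6 and 27.4 CPM in WT. The level in Rad21 KO was 0.529 of that in WT, and the groups were far apart relative to the gaps within them. The log2 change was -0.92 (SE 0.16, n = 2 libraries per genotype, edgeR adjusted p = 0.0144). The call was made under all 10 alternatives tried, with adjusted p from 0.0142 to 0.048.

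Med29, a neighbour of Med30 in the complex, had the opposite sign. Its level was 18.8 and 21.0 CPM in Rad21 KO and 13.0 and 11.5 CPM in WT. The groups did not overlap, and the log2 change of 0.70 (SE 0.18) did not pass the threshold (edgeR adjusted p = 0.0508). Under the alternatives that keep all libraries it did not pass either. The adjusted p there ran from 0.0507 by edgeR with RLE factors to 0.19 by DESeq2. Med6, at the junction of head and middle, stood at 26.4 and 23.9 CPM in Rad21 KO and at 19.4 and 18.4 CPM in WT, a log2 change of 0.41 (SE 0.16). Med8, part of the movable jaw of the head with Med18 and Med20, stood at 27.2 and 26.4 CPM in Rad21 KO and at 36.5 and 32.7 CPM in WT, a log2 change of -0.37 (SE 0.14). Neither passed the threshold, with edgeR adjusted p = 0.14 for Med6 and 0.145 for Med8. Before adjustment, 4 of the 11 head genes had an edgeR p under 0.05 (Med30, Med29, Med6 and Med8), and 29.4% of all tested genes did.

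The other 7 head genes lay nearer to 0. Med18 had a log2 change of 0.25 (SE 0.22) and Med20 one of -0.08 (SE 0.12). Both intervals include 0 (-0.27 to 0.77 and -0.36 to 0.21), so the sign of these jaw members is not settled. Med17, the architectural centre of the head, stood at 53.8 and 58.5 CPM in Rad21 KO and at 51.1 and 55.3 CPM in WT, which overlap, with an interval of -0.21 to 0.37 on the log2 scale. Med22 stood at 45.7 and 34.2 CPM in Rad21 KO and at 32.9 and 33.1 CPM in WT, and its log2 change of 0.28 (SE 0.17) rests mostly on Rad21 KO replicate 1. Its head partner Med11 was weakly counted, at 51 and 51 counts in Rad21 KO and 59 and 34 in WT, and its interval of -0.63 to 0.91 is among the widest. Med27 had a log2 change of 0.18 (SE 0.15) and Med28 one of -0.02 (SE 0.17).

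**Figure D2:**
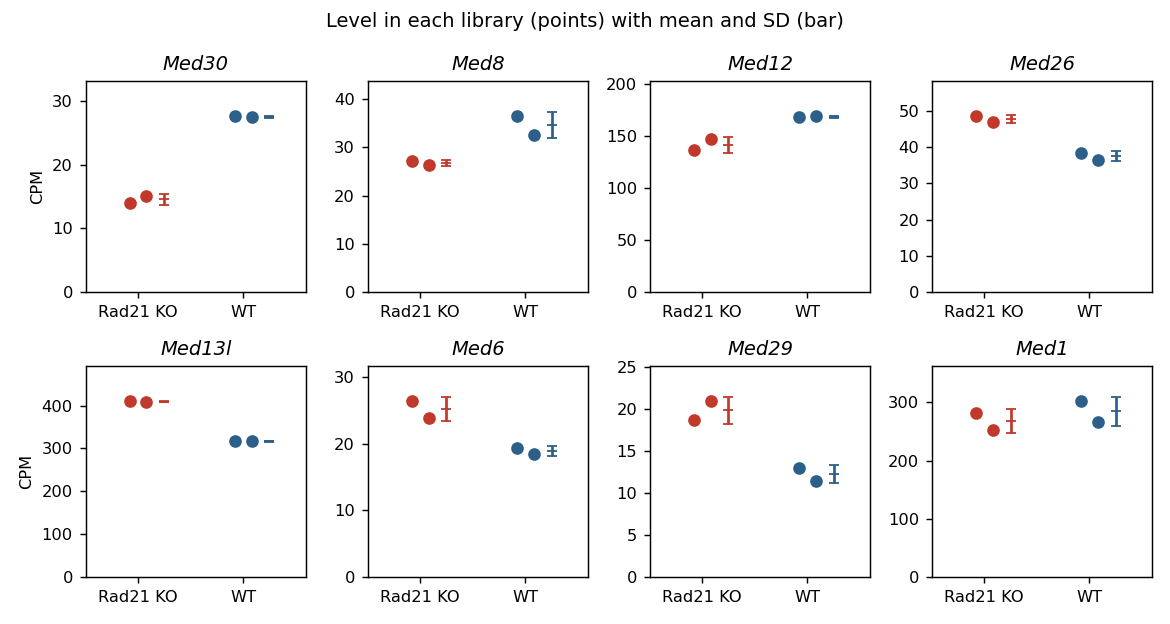
Level in CPM (y axis, starting at 0) in each library of Rad21 KO and WT for the 7 members with an unadjusted edgeR p under 0.05 and for Med1. Points are libraries, and the bars beside them give the mean and SD (n = 2). Med30 lies near 14.6 CPM in Rad21 KO and 27.5 CPM in WT, while the libraries of Med1 overlap.

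The middle module carries the hinge through which Mediator changes shape, and 0 of its 9 genes passed the threshold by edgeR or by DESeq2, while 1 of them, Med26, had an unadjusted edgeR p under 0.05. Med1, which binds nuclear receptors and is the subunit the study used to map Mediator on chromatin, stood at 282 and 253 CPM in Rad21 KO and at 303 and 267 CPM in WT. The groups overlapped, and the interval of its log2 change ran from -0.35 to 0.18. Med26, which brings elongation factors to promoters, stood at 48.5 and 47.0 CPM in Rad21 KO and at 38.4 and 36.4 CPM in WT, a log2 change of 0.35 (SE 0.12, edgeR adjusted p = 0.115). The hinge subunits Med7 and Med21 had log2 changes of -0.07 (SE 0.14) and 0.28 (SE 0.19). Among the others, Med10 stood at 0.19 (SE 0.17), Med4 at 0.17 (SE 0.14), Med31 at 0.05 (SE 0.22), Med9 at -0.02 (SE 0.35) and Med19 at -0.18 (SE 0.16) on the log2 scale. Med9 was the least counted member, with 26 and 40 counts in Rad21 KO and 33 and 34 in WT, and its interval ran from -0.83 to 0.80 on the log2 scale.

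The tail receives activators, and none of the 6 tail and scaffold genes passed the threshold or had an unadjusted edgeR p under 0.05 (by DESeq2, also none passed an adjusted p of 0.05). The scaffold gene Med14 stood at 181 and 188 CPM in Rad21 KO and at 215 and 213 CPM in WT. The groups did not overlap, at a log2 change of -0.21 (SE 0.09, edgeR adjusted p = 0.182). Med16 lay on the other side, at 78.8 and 77.7 CPM in Rad21 KO and 61.3 and 69.0 CPM in WT, with a log2 change of 0.26 (SE 0.12). Med23, which binds the adenoviral activator E1A and the growth factor responsive activator Elk1, had a log2 change of 0.15 (SE 0.14). Med15, the partner of the sterol-responsive SREBP activators, stood at 0.10 (SE 0.13), and Med25, the target of the viral activator VP16, at 0.01 (SE 0.14). Med24 was uneven in Rad21 KO, at 144 and 104 CPM, against 128 and 147 CPM in WT. All 6 intervals lay within 1.5-fold, as did those of 3955 of the 12003 tested genes. The tested genes include some with far fewer counts, which widens an interval.

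The kinase module exists in alternative forms, since Cdk8 or Cdk19, Med12 or Med12l, and Med13 or Med13l can fill the same place. Med13 and its paralog Med13l join the module to the core. Med13l rose, at 411 and 408 CPM in Rad21 KO and 316 and 318 CPM in WT, with replicates close together in both genotypes. Its log2 change was 0.37 (SE 0.09, n = 2 libraries per genotype, edgeR adjusted p = 0.0444). The call was lost under 6 of 10 alternatives, among them the omission of any of the 4 libraries (log2 change 0.36 to 0.39, edgeR adjusted p 0.0723 to 0.177). Med13 stood at 536 and 544 CPM in Rad21 KO and at 619 and 593 CPM in WT, a log2 change of -0.17 (SE 0.10) that did not pass the threshold.

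The upstream regions of this paralog pair are shown because the fitted changes had opposite signs, although the interval of Med13 (-0.40 to 0.07) includes 0. Whether these stretches bear on the changes was not tested. Each run gives the 250 bases before the RefSeq transcription start (build GRCm38.p6, 5′ to 3′ on the gene's strand), and capitals mark GC boxes (GGGCGG, the Sp1 motif) and NRF1 motifs (GCGC, any 2 bases, GCGC), searched on both strands with overlaps allowed. Med13l lies at chr5:118560469-118560718 on the plus strand and Med13 at chr11:86357597-86357846 on the minus strand.
Med13l: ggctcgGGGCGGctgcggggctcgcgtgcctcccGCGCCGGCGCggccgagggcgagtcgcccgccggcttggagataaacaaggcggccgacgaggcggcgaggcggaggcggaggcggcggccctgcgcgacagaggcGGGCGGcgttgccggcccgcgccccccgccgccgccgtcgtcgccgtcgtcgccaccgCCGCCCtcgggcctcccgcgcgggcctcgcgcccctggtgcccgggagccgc
Med13: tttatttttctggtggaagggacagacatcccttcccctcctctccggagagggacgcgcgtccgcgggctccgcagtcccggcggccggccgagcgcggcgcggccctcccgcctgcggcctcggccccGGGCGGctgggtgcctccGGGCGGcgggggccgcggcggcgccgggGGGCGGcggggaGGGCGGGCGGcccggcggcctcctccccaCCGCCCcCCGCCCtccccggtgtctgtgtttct
The Med13l stretch is 84% G and C with 51 CpG dinucleotides, 3 GC boxes and 1 NRF1 motif, and the Med13 stretch is 80.0% G and C with 37 CpG dinucleotides, 7 GC boxes, of which 2 overlap each other, and no NRF1 motif in this window.

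In RefSeq, upstream stretches were found for 28 of the 33 members. A GC box was present in 19 of the 28 (67.9%), and in 63.2% of the tested genes with such a stretch. The ETS motif CCGGAAG was present in 6 (21.4%, against 16.2% of tested genes) and the NRF1 motif in 5 (17.9%, against 12.5%). A CCAAT box was present in 11 (39.3%, against 40.7%), the TATA box TATAAA in 3 (10.7%, against 7.81%) and the E-box CACGTG in 2 (7.14%, against 9.97%). The median G and C content was 56.8% for the members and 59.6% for tested genes. Those not matched are Cdk19, Med8, Med23, Med24 and Med30.

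The ratio of Med13l to Med13 counts was 0.766 and 0.749 in Rad21 KO and 0.511 and 0.536 in WT, 1.45-fold higher in Rad21 KO. Because each ratio was formed within a library, scaling between libraries does not enter, and since counts are not per length the ratio is not one of molecules. The difference was 0.53 on the log2 scale, while the replicates of a genotype had an SD of 0.023 in Rad21 KO and 0.049 in WT. With 2 libraries per genotype an exact permutation test cannot go below a two-sided p of 0.333, so none is given. The ratio of Cdk8 to Cdk19 counts was 0.235 and 0.290 in Rad21 KO and 0.250 and 0.283 in WT, and the groups overlapped. That of Med12l to Med12 was 0.0542 and 0.0916 in Rad21 KO and 0.0714 and 0.0466 in WT, again overlapping and with wide gaps between replicates. Leaving out 1 library at a time kept the Med13l difference between 0.50 and 0.57, while the sign of the other 2 pairs changed.

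**Figure D3:**
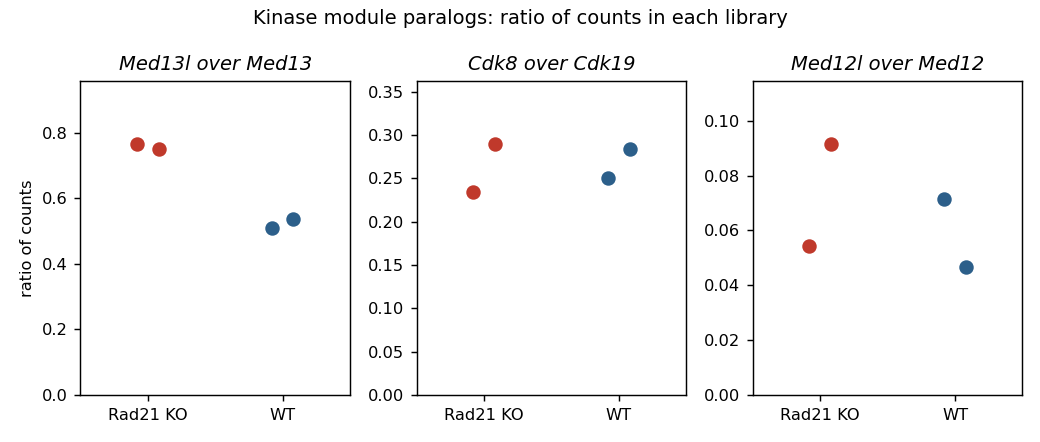
Ratio of counts of Med13l over Med13, Cdk8 over Cdk19 and Med12l over Med12 (y axes, each starting at 0), 1 point for each library of Rad21 KO and WT. The groups are apart for Med13l over Med13, at 0.749 or more in Rad21 KO and 0.536 or less in WT, and overlap for the other pairs.

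Of the 7 kinase module genes, 5 had lower levels in both Rad21 KO libraries than in either WT library, where 29.2% of all tested genes did, although none of the 5 passed the threshold. Med12, which activates the kinase, stood at 136 and 147 CPM in Rad21 KO and at 168 and 169 CPM in WT, a log2 change of -0.25 (SE 0.10, edgeR adjusted p = 0.145). Ccnc, the gene of cyclin C, stood at 17.2 and 23.6 CPM in Rad21 KO and at 27.5 and 25.3 CPM in WT, a log2 change of -0.37 (SE 0.19). The kinase genes Cdk8 and Cdk19 had log2 changes of -0.19 (SE 0.14) and -0.16 (SE 0.10), and Med13 is the fifth. The upper ends of the 5 intervals ran from -0.02 for Med12 to 0.14 for Cdk8. With Med13l and Med12l included, the summed level of the module was 1284 and 1304 CPM in Rad21 KO and 1339 and 1302 CPM in WT.

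How strand was used in the counting is unknown from these sources, and reads from a member and from a gene that overlaps it may not be told apart. In RefSeq, Med12l, Med20, Ccnc, Med13 and Med19 overlap other tested genes. Gpr171 and P2ry14, receptor genes that lie within Med12l, had log2 changes of 0.85 and 2.87 (edgeR adjusted p = 0.0063 and 0.00113), while Med12l itself stood at 7.39 and 13.5 CPM in Rad21 KO and 12.0 and 7.89 CPM in WT. Gm20517, which overlaps Med20, stood at 8.76 and 7.09 CPM in Rad21 KO and 3.55 and 5.26 CPM in WT. The genes overlapping Ccnc (Tstd3), Med13 (Brip1os) and Med19 (Tmx2 and Zdhhc5) did not pass the threshold. Med30 and Med13l overlap no tested gene.

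Med30 and Rad21 lie on mouse chromosome 15, and in the gene order of RefSeq no tested gene stands between them, while 3 protein-coding genes that do (Gm52217, Aard and Slc30a8) were not among the genes tested. Of the 5 nearest tested genes on each side of Rad21, 2 were called, and both were lower in Rad21 KO, where 12.8% of all tested genes were called and 5.17% were lower. Besides Med30 this was Trps1, a zinc finger repressor of the GATA type, at 19.7 and 28.5 CPM in Rad21 KO and 105 and 84.5 CPM in WT (log2 change -1.98, SE 0.20, edgeR adjusted p = 0.0026). Utp23 and Eif3h, which stand between Trps1 and Rad21, had log2 changes of 0.06 (SE 0.15) and -0.04 (SE 0.12). On the far side of Med30, Ext1, which builds heparan sulfate chains, and Taf2, a subunit of the general factor TFIID, had log2 changes of -0.23 (SE 0.13) and -0.26 (SE 0.12), not past the threshold. Further out on the Rad21 side, Ebag9 stood at 0.24 and Csmd3 at 0.00, and on the Med30 side Dscc1 at 0.57, Gm9920 at -0.28 and Deptor at 0.01. Whether the fall of Med30 is tied to its place beside the targeted gene was not tested.

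**Figure D4:**
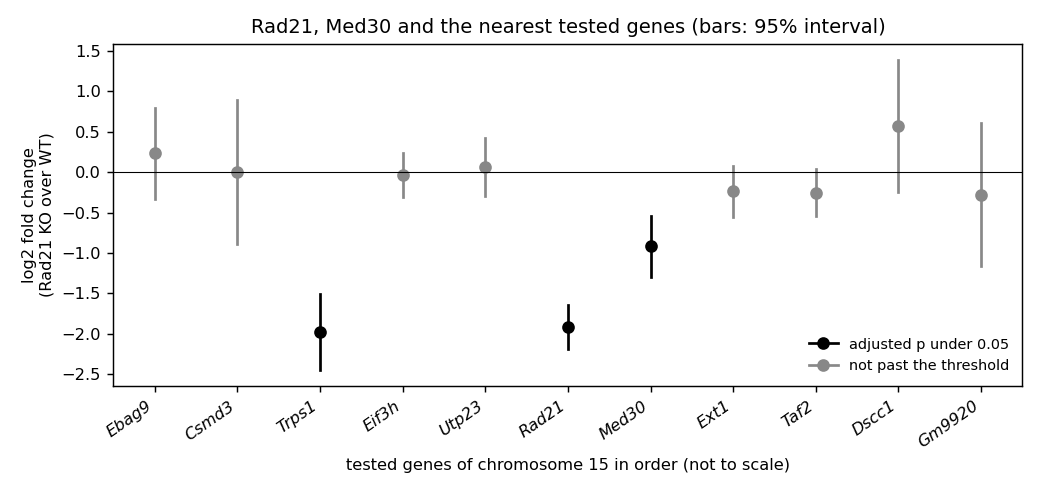
Log2 fold change of Rad21 KO over WT (y axis) for Rad21 and the 5 nearest tested genes on each side, in RefSeq gene order along chromosome 15 and not to scale, with 95% intervals. Trps1 at -1.98, Rad21 at -1.91 and Med30 at -0.92 stand in black as past the edgeR threshold (adjusted p 0.05), and the intervals of the other genes cross 0.

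Around Med13l, on chromosome 5, 2 of the 10 nearest tested genes were called and both were higher in Rad21 KO, where 12.8% of all tested genes were called and 7.6% were higher. Fbxo21, a substrate adaptor of a ubiquitin ligase, stood at 47.2 and 54.8 CPM in Rad21 KO and at 31.6 and 31.3 CPM in WT, a log2 change of 0.70 (SE 0.14). Plbd2 stood at 14.92 and 16.96 CPM in Rad21 KO and at 8.20 and 9.56 CPM in WT, a log2 change of 0.84 (SE 0.21). Fbxw8, the direct neighbour on one side, had a log2 change of 1.27 (SE 0.37, edgeR adjusted p = 0.0669), and Tbx5, the direct neighbour on the other, one of -0.45 (SE 0.50). The remaining 6 were Rfc5 at 0.41, Wsb2 at 0.40, Ksr2 at 0.31, Rbm19 at 0.22, Slc8b1 at 0.13 and Tpcn1 at -0.09, none past the threshold. The call of Fbxo21 was lost without either WT replicate (log2 change 0.70 without replicate 1 and 0.69 without replicate 2). That of Plbd2 was lost by DESeq2 and without Rad21 KO replicate 2 (0.76) or either WT replicate (0.73 and 0.95). Without Rad21 KO replicate 2, Fbxw8, Rfc5 and Wsb2 passed the threshold, at 1.63, 0.66 and 0.65.

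The lists of other transcription machinery held 8 called genes of 76 (10.5%), 7 higher and 1 lower in Rad21 KO, beside 12.8% of all tested genes. Of 13 subunits of RNA polymerase II, 0 passed the edgeR threshold (also 0 by DESeq2), though 2 had an unadjusted p under 0.05. The largest subunit gene, Polr2a, stood at 367 and 339 CPM in Rad21 KO and at 267 and 297 CPM in WT (log2 change 0.32, SE 0.11). Of 31 general transcription factor genes, 2 rose, the others not passing the threshold. These were the TFIID subunits Taf4, at 42.0 and 36.3 CPM in Rad21 KO and 22.5 and 24.9 CPM in WT, and Taf7, at 88.4 and 92.1 CPM in Rad21 KO and 69.5 and 61.4 CPM in WT. The most abundant gene of that list, the TFIIH subunit Gtf2h4, had a log2 change of -0.54 (SE 0.16) that did not pass, though it did by DESeq2 and without Rad21 KO replicate 1 (-0.79).

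Pausing and elongation factors act after Mediator has helped the polymerase to start. Of 23 such genes 4 rose and 1 fell (21.7% called, beside 12.8% of all tested genes). The median log2 change was 0.21, beside -0.01 over all tested genes. The list was chosen with earlier results of these data known, so these values describe it and do not test the class. Aff1, a scaffold of the super elongation complex, stood at 684 and 640 CPM in Rad21 KO and at 328 and 368 CPM in WT, a log2 change of 0.93 (SE 0.11). Hexim1, the inhibitor of the pause release kinase P-TEFb, stood at 271 and 264 CPM in Rad21 KO and at 161 and 150.4 CPM in WT, a log2 change of 0.78 (SE 0.10). Supt6 and Mllt3 rose by log2 changes of 0.51 (SE 0.11) and 0.50 (SE 0.11), while Eaf1, a partner of the elongation factor Ell, fell by 0.63 on the log2 scale (SE 0.13). Among 9 coactivators, the acetyltransferase Crebbp rose by a log2 change of 0.44 (SE 0.11), and Trrap stood at 0.12 (SE 0.12). Every gene said to have risen or fallen passed the edgeR threshold. Taf4 lost its call without Rad21 KO replicate 1 or either WT replicate, and Taf7 lost it without any 1 of the 4 libraries and by DESeq2. Supt6 and Mllt3 lost theirs without Rad21 KO replicate 2 or either WT replicate, and Crebbp without either Rad21 KO replicate or WT replicate 1. The log2 changes without a library ran from 0.62 to 0.79 for Taf4, 0.37 to 0.56 for Taf7 and 0.33 to 0.53 for the other 3 where the call was lost, while Aff1, Hexim1 and Eaf1 kept theirs without any 1 library.

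**Figure D5:**
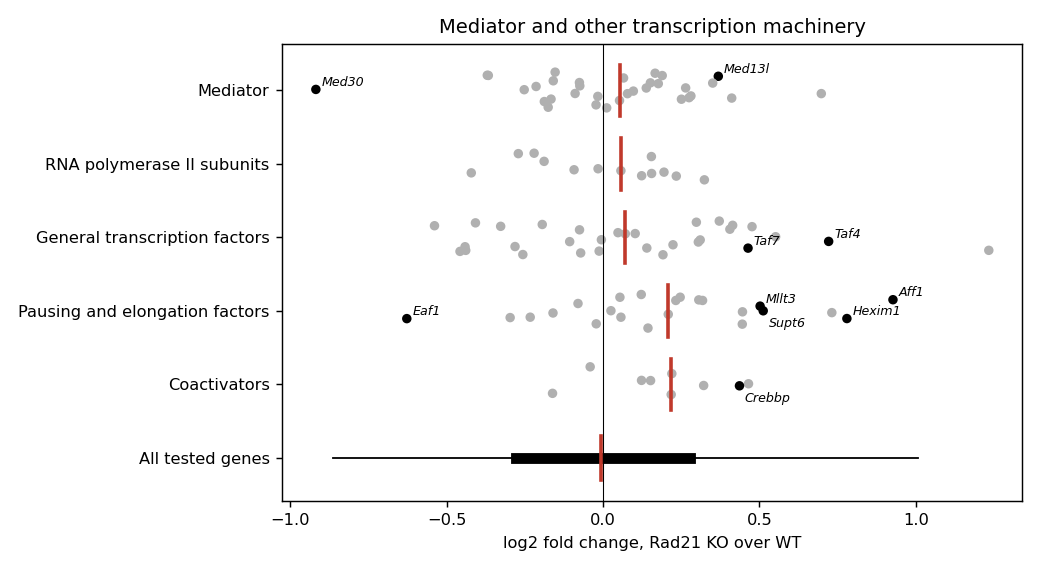
Log2 fold change of Rad21 KO over WT (x axis) for every member of Mediator and of the 4 other lists, 1 point per gene, with genes past the edgeR threshold (adjusted p 0.05) in black and the list median as a red line. The bottom row shows the median, the middle 50% (thick bar) and the middle 90% (thin line) of all 12003 tested genes, with the thin line running from -0.86 to 1.01.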

How the data were processed

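Per the labels' protocols, RNA of sorted thymocytes was freed of ribosomal RNA and made into Illumina libraries. The authors deposited estimated counts (count equivalents) for each Ensembl gene, which were rounded to whole numbers before testing. The submitters' processing notes name build mm9. Aligner, counting program and strand setting are recorded as not given in the sources used here. Symbols were found for 17342 of 17849 identifiers.

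The test was edgeR's quasi-likelihood test (edgeR 4.0.16, R 4.3.3) after filterByExpr and TMM scaling, with genotype as the term, Benjamini-Hochberg adjustment over all 12003 genes and a threshold of 0.05. The procedure was checked on simulated counts. Intervals of 95% use the model's SE and t quantile. Alternatives were DESeq2 1.42.0, RLE factors, limma-voom (limma 3.58.1), no filter, a replicate block, removal of Lars2 and Gm15564, and each library left out. A count of 3 in a library equals 0.41 to 0.417 CPM. Replicates were not copies of one library, since chi-square divided by its degrees of freedom was 69.0 between the Rad21 KO libraries and 6.17 between the WT libraries (6.56 and 5.31 without Lars2 and Gm15564). RefSeq tables, on build GRCm38.p6, gave gene order, overlaps and upstream sequence. Peak lists are on mm9, for which no annotation was at hand, and were not used here.

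The genes named were every member, Rad21, the called and the most abundant genes of the other lists, genes overlapping a member, and the neighbours of Rad21 and of called members. Some genes are not reported here and were left out of the lists. Members and lists were chosen with earlier results of these data known.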

Additional observations from a re-analysis of the deposited data

How the results depend on the processing

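Med30 was called under all 10 alternatives, and Med13l under 4. Med13l kept its size but lost its call without the filter (0.36 on the log2 scale), with the replicate block (0.37) and without each library (0.36 to 0.39), so that 1 Mediator gene in place of 2 was called in each of these 3 cases. The number of genes called in the whole table, 1533, was 433 without the filter (285 higher and 148 lower in Rad21 KO), and 947 to 1438 without 1 library (574 to 880 higher, 373 to 558 lower, fewest without WT replicate 2). The lower calls, 621, were 381 with the replicate block. In the machinery lists, 8 calls became 2 without the filter, 3 with the block and 4 to 6 without 1 library. Of the called neighbours of Med13l, Plbd2 lost its call without the filter (edgeR adjusted p = 0.0888) and with the block (0.0616), and Fbxo21 without the filter (0.0725). Without the filter 17003 genes were tested, and the cause of the other differences was not tested. The replicate numbers were not treated as pairs, since the deviations of same-numbered libraries had a correlation of 0.0385 across genes.

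Of the members' log2 fold changes, none changed sign under the alternatives that keep all libraries. Without 1 library, 11 members crossed 0, each with a value of at most 0.15 in size over all libraries. The ranges were -0.18 to 0.0034 for Med1, -0.20 to 0.58 for Med11, -0.41 to 0.44 for Med12l, -0.0018 to 0.21 for Med15, -0.16 to 0.0032 for Med20, -0.40 to 0.079 for Med24, -0.057 to 0.099 for Med25, -0.25 to 0.20 for Med28, -0.061 to 0.18 for Med31, -0.13 to 0.0050 for Med7 and -0.36 to 0.28 for Med9. Among other genes they were -0.22 to 0.26 for Csmd3 (-0.0068 without the counts of Lars2 and Gm15564), -0.27 to 0.35 for Deptor, -0.17 to 0.10 for Eif3h, -0.046 to 0.61 for Ksr2, -0.24 to 0.61 for Slc8b1, -0.19 to 0.029 for Tpcn1, -0.086 to 0.21 for Utp23 and -0.022 to 0.28 for Trrap. The median over all genes moved by at most 0.014. A lone library left in a genotype is assumed to vary like the other genotype's. Low counts limit Med9, Med11, Med12l, Med18 and Med31. The planned windows around peaks were not run.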
